A study of Mus musculus with 2 samples.

Results

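The adult hemoglobin of the mouse is built from chains encoded by 4 genes, Hba-a1 and Hba-a2 for the alpha chain, and Hbb-bs and Hbb-bt for the beta chain. They were chosen by symbol, for their role, and are 4 of the 27998 genes counted in each library. Ahsp, which encodes the chaperone of free alpha chains and was listed with them, was not analysed here. The cells came from 1 wild-type liver of a C57BL/6 mouse embryo at E12.5, carried no transgene or treatment, and were freed of debris, dead cells and doublets by sorting before droplet encapsulation. This suspension was run as 2 technical replicate libraries, of which the first held 5480 kept cells with 51969226 unique molecular identifiers (UMIs, each marking 1 captured RNA molecule) and the second 5057 kept cells with 62738015 UMIs. With 1 liver there was no replicate of the animal, so values are given per library and no test was made. The libraries shared 31 cell barcodes, and library 1 kept cells down to 504 UMIs, whereas the smallest cell of library 2 had 4387.

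Each hemoglobin molecule joins alpha-type and beta-type chains around heme, and red cell precursors make both kinds in large amounts, since a free chain is unstable. In the mouse embryo, primitive erythroblasts from the yolk sac first carry embryonic chains, encoded by Hba-x on the alpha side and by Hbb-y and Hbb-bh1 on the beta side. Definitive erythroblasts, which mature in the fetal liver, carry adult chains. The promoters of adult globin genes hold short elements that erythroid and general factors are known to bind, such as a CACCC element (bound by KLF1), a CCAAT box and a TATA box.

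By the GENCODE vM21 annotation of the build GRCm38, the alpha genes lie on the plus strand, Hba-a1 at chr11:32283511-32284465 and Hba-a2 at chr11:32296489-32297298. The beta genes lie on the minus strand, Hbb-bs at chr7:103826534-103828096 and Hbb-bt at chr7:103812524-103813996. Each gene has 3 exons. The alpha coding sequences have 429 bases and differ at 1 of them, written C381T, with the base of Hba-a1 first and the position counted from the first base of the start codon. The beta coding sequences have 444 bases and differ at 1 of them, written C417T, with the base of Hbb-bs first. Both changes leave the encoded protein the same. The stretches of coding sequence around these bases are shown because they hold the only coding bases that set the copies apart. Capitals mark the differing base, which lies in the third exon at chr11 position 32284343 in Hba-a1, 32297160 in Hba-a2, chr7 position 103826692 in Hbb-bs and 103812683 in Hbb-bt.
Hba-a1: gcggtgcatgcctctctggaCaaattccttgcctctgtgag
Hba-a2: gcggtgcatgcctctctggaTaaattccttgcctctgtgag
Hbb-bs: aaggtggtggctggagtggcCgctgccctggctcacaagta
Hbb-bt: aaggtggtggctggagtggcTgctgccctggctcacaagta

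The libraries were read from the 3′ end of the RNA, where the copies are also alike. The annotated 3′ untranslated regions (3′ UTRs) of the alpha genes have 74 and 90 bases, and the 74 aligned bases did not differ. Those of the beta genes have 131 and 132 bases, and 33 of 128 aligned bases differed. Of all 50-base words in the last 400 bases of the transcripts, 85.8% of those of Hba-a1 and 81.2% of those of Hba-a2 also occurred in transcripts of another gene. The shares were 54.7% for Hbb-bs and 54.4% for Hbb-bt, and 0% for Hba-x, Hbb-y and Hbb-bh1. How reads that match both copies were shared out, or whether they were counted, is not given in the sources used here. The split of UMIs within each pair is therefore uncertain, and sums over a pair are given beside it. If such reads were not counted, the sums could be too low as well, and more so on the alpha side. Adult shares and alpha per beta ratios would then carry this limit too, which was not tested.

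The promoters of genes that were higher together along the erythroid subclusters are shown as the 120 bases before the start of the RefSeq transcript, in RefSeq sequence of GRCm38.p6. Capitals mark a CACCC element, a CCAAT box, the letters TATAA of a TATA box and the letters GATA, read on either strand, so that a CCAAT box on the other strand appears as the letters ATTGG. None of the marked motifs overlap. Hba-a2 stands for both alpha genes, since a run of 247 bases is shared within the 250 bases before each start. The longest run shared by the beta genes is 14 bases. The windows are chr11:32296372-32296491 on the plus strand for Hba-a2, and chr7:103827929-103828048 and chr7:103813924-103814043 on the minus strand for Hbb-bs and Hbb-bt. The GENCODE gene of Hbb-bs begins upstream of its window, and those of Hba-a2 and Hbb-bt begin inside theirs.
Hba-a2: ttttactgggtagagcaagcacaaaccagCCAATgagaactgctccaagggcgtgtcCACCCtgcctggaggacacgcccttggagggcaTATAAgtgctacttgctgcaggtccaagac
Hbb-bs: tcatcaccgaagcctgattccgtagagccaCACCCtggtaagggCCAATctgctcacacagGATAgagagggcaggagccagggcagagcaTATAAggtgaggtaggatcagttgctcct
Hbb-bt: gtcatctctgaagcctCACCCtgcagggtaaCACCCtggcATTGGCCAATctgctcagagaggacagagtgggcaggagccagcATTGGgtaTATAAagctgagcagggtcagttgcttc

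All 4 promoters, that of Hba-a1 included, held a CACCC element, a CCAAT box and a TATA box. Their first bases lay 27 to 30 bases before the start for the TATA box, 60 to 104 for the CACCC element and 36 to 91 for the CCAAT box. Of 32851 RefSeq promoters cut to the same 120 bases, 31.7% held the CACCC element, 21.3% the CCAAT box, 11.8% the TATA box and 0.688% all of these. GATA was found in the window of Hbb-bs only, and in 29.5% of all windows. These matches are a description of the letters and not of bound sites.

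The deposited table names 9 cell types and splits the erythroid cells into subclusters Ery 1 to Ery 6. Ery, the erythroid-committed progenitors, comprises Ery 1 and Ery 2, and Eryb, the erythroblasts, Ery 3 to Ery 6. Per the methods, cells were clustered on the variable genes of these same counts. Whether adult globins were among those genes is not stated, so the groups may not be independent of the levels given below. The other types are hematopoietic stem and progenitor cells (HPSC in the table), primitive erythroblasts (EryP), megakaryocytes (Mk), granulocytes (G), monocytes and Kupffer cells (Mo/KC), hepatoblasts (Hepa) and endothelial cells (EC). Markers of EryP, Mk, G, Mo/KC, Hepa and EC, 3 for each, were all highest in the type they mark in both libraries. Exceptions elsewhere were Myb, which was highest in G and not in HPSC, Gata1, which was highest in Mk and not in Ery, and Klf1 and Car1, whose highest type differed between the libraries.

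Adult globins made up the largest share of UMIs in the erythroblasts. For each group, the UMIs of the 4 genes in all its cells were taken as a percentage of the total. In Eryb they made up 36.1% of the UMIs in library 1 and 58.8% in library 2 (47.4% ± 16.1, SD, n = 2 technical libraries), and in Ery 2.09% and 4.75% (3.42% ± 1.88). HPSC held 1.53% and 2.76% (2.14% ± 0.868), and EryP 15.1% and 34.3% (24.7% ± 13.6). Within Ery and Eryb, the share was higher at each successive subcluster. It was 1.02% in library 1 and 2.32% in library 2 in Ery 1, 3.24% and 7.33% in Ery 2, 15.5% and 28.2% in Ery 3, and 35.7% and 56.9% in Ery 4. Ery 5 reached 50.4% and 72.9%, and Ery 6, the highest of all groups in both libraries, 57.0% and 77.9%. Library 2 was above library 1 in 12 of the 13 groups, the exception being EC. Ery 4 and Ery 5, and Ery 5 and Ery 6, differed by less than the libraries did within each of them.

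The counting error of these shares was far smaller than the distance between the libraries. The exact (Clopper-Pearson) 95% confidence interval of the Eryb share was 36.0% to 36.1% in library 1 and 58.8% to 58.8% in library 2. Such intervals, here and below, cover counting error only. The order of the groups was the same in both libraries for Ery 6, Ery 5 and Ery 4. The next places were exchanged, with Ery 3 just above EryP in library 1 and EryP above Ery 3 in library 2. Ery 2 was sixth in both. The remaining groups lay between 1.02% and 2.86% in library 1 and between 2.11% and 5.27% in library 2, and their order differed. EC, for instance, was the highest of them in library 1 and the lowest in library 2.

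The level of a gene was its UMIs per 1000000 UMIs of the group (CPM). Since UMIs count molecules at the 3′ end, they were not divided by gene length. Hbb-bs had the highest level of the 4 genes in every group but EryP. In Ery 6, Hbb-bs reached 264324 CPM in library 1 and 317047 CPM in library 2, and Hbb-bt 140273 and 181563 CPM. Hba-a1 reached 97598 and 156329 CPM there, and Hba-a2, the lowest of the 4, 67655 and 124086 CPM. In Ery 1, Hbb-bs stood at 4467 and 9505 CPM, Hbb-bt at 2499 and 5753, Hba-a1 at 1870 and 4571, and Hba-a2 at 1409 and 3392. In EryP the order was another one. Hba-a1 was highest there, with 66184 CPM (library 1) and 148884 CPM (library 2), followed by Hba-a2 at 35705 and 91576 CPM, with Hbb-bt at 26206 and 53472 CPM and Hbb-bs at 23190 and 49286 CPM.

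**Figure D1:**
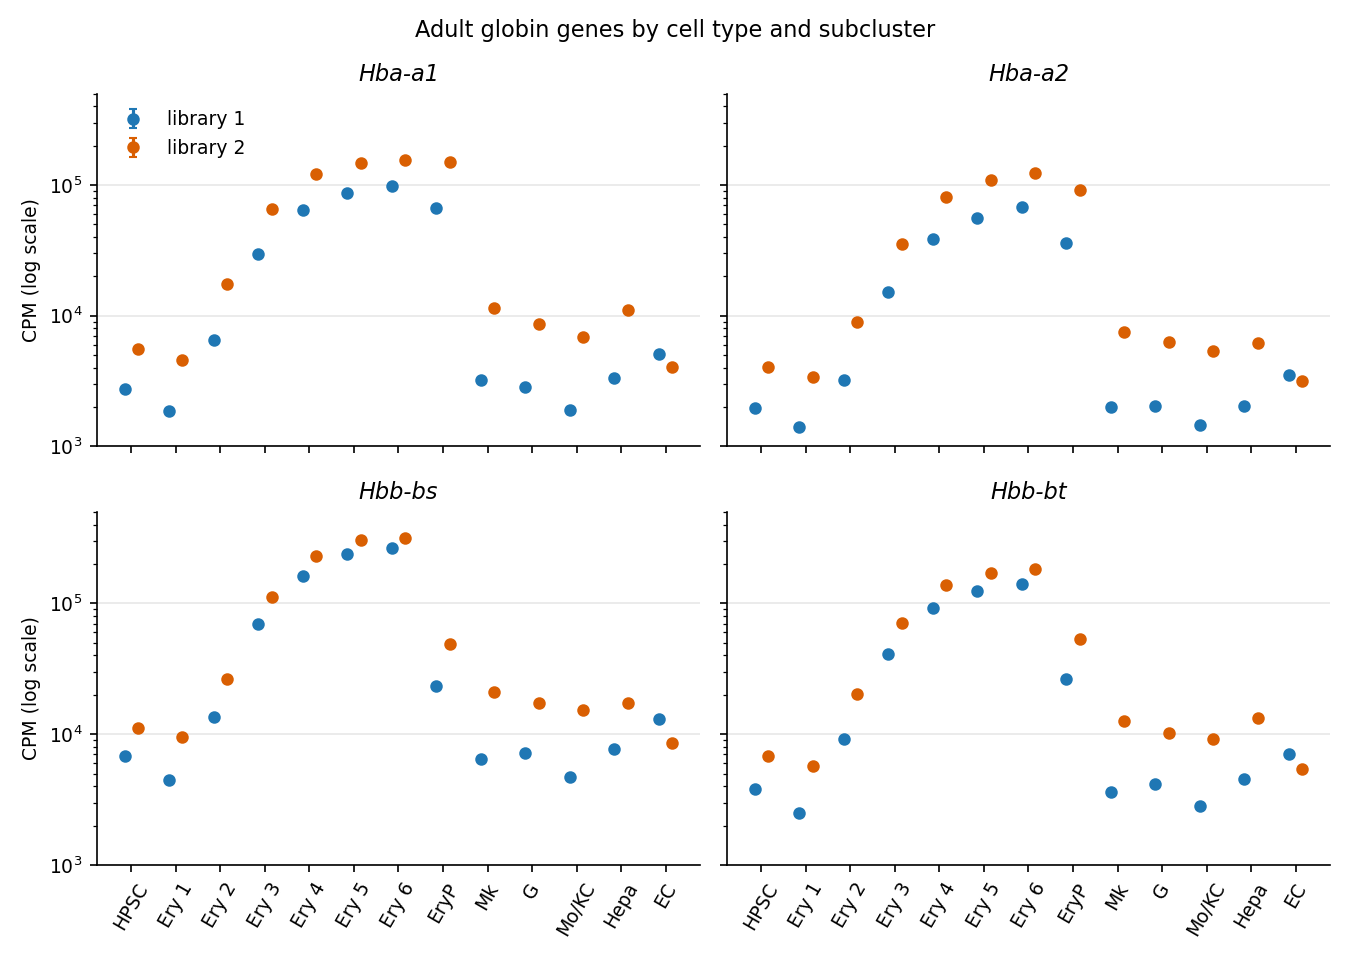
Level of each adult globin gene in CPM (log scale) in 13 groups, with 1 point per library and exact Poisson 95% intervals that are smaller than the points. From Ery 1 to Ery 6 the points climb for each gene, library 2 lies above library 1 in all groups but EC, and in EryP the beta genes lie further below Ery 6 than the alpha genes.

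The step from progenitors to erythroblasts was compared as the ratio of CPM. All 4 genes were at least 2-fold higher in Eryb than in Ery in both libraries, against 302 of 6117 genes tested (4.94%), while 3269 (53.4%) were at least 2-fold lower. With the median ratio of all genes set to 1, 1223 genes were higher and 1080 lower, and the 4 members were among the higher. The ratio of their sum was 17.2 in library 1 and 12.4 in library 2. For Hbb-bs it was 18.7 and 13.4, for Hba-a2 17.7 and 14.3, for Hbb-bt 16.1 and 10.9, and for Hba-a1 15.4 and 11.3. Adult globins are themselves a large part of the UMIs of Eryb, which lowers the CPM of all genes there. Per UMI of all other genes the ratio of the sum was 26.4 in library 1 and 28.6 in library 2, so the libraries lay closer on this scale.

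The steps between successive subclusters were largest early. From HPSC to Ery 1 the sum was lower, with a CPM ratio of 0.670 in library 1 and 0.842 in library 2, and no member passed 2-fold (5.75% of genes were at least 2-fold higher and 13.6% lower). This direction depended on a few cells with much adult globin. Without cells above 5% adult globin, a limit chosen after seeing the data, Ery 1 was the higher. It then held 0.817% and 0.990%, against 0.765% and 0.896% in HPSC. From Ery 1 to Ery 2 the sum was 3.16-fold higher in both libraries, and all 4 genes were at least 2-fold higher, against 1.98% of the 6314 genes tested. From Ery 2 to Ery 3 it was 4.79-fold higher in library 1 and 3.85-fold in library 2, again with all 4 genes at least 2-fold higher, against 2.17%. From Ery 3 to Ery 4 it was 2.30-fold and 2.02-fold higher, and 2 of the 4, Hba-a2 and Hbb-bs, passed 2-fold by CPM in both libraries, against 0.847%. Per UMI of other genes all 4 passed, against 5.5%, with ratios of 2.82 to 3.37 in library 1 and 3.09 to 3.83 in library 2. From Ery 4 to Ery 5 the ratio was 1.41 and 1.28 and from Ery 5 to Ery 6 1.13 and 1.07, with no member past 2-fold (0.186% and 3.77% of genes were at least 2-fold higher, and 16.6% and 26.8% lower). Per UMI of other genes these last ratios were 1.82 and 2.04, and 1.31 and 1.31. Over the whole course from Ery 1 to Ery 6, the sum was 55.6-fold higher by CPM in library 1 and 33.5-fold in library 2, and 128-fold and 148-fold higher per UMI of other genes. All 4 genes were at least 2-fold higher over this course in both libraries, as were 5.25% of the genes tested. The median Ery 1 cell held 0.771% and 0.905% adult globin, close to HPSC at 0.728% and 0.885%. The sizes of the step from Ery 1 to Ery 2 and of the whole course thus depend on how much of this was free RNA, which was not tested.

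In single cells, the larger share came with both more adult globin UMIs and fewer UMIs of other genes. The median cell of Ery 1 held 204 adult globin UMIs beside 25843 of other genes in library 1, and 247 beside 25485 in library 2. In Ery 3 these medians were 1445.5 beside 7431.5 in library 1 and 3287 beside 7762 in library 2. In Ery 5 they were 2909 beside 2848 and 7088.5 beside 2655.5. In Ery 6 adult globins stood at 2515 UMIs in library 1 and 6174.5 in library 2, below their medians in Ery 5, while other genes stood at 1843 and 1671. The higher share of Ery 6 over Ery 5 was thus not a higher number of adult globin UMIs per cell. The median number of UMIs of other genes per cell was similar in the libraries, whereas that of adult globins was higher in library 2 in each of these subclusters. These medians compare unlike sets of cells, since library 1 kept smaller cells. Under a common UMI minimum, 604 of 1218 Ery 6 cells and 436 of 497 Ery 5 cells of library 1 were left, and all 1176 and 590 of library 2. Medians per cell under that minimum are not given here.

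Relative to its level, the share varied little among late erythroblasts and widely among Ery 2 cells. How far the clustering itself set these ranges was not tested. The middle 90% of Ery 5 cells held 42.8% to 56.7% adult globin in library 1 and 66.8% to 78.7% in library 2. Those of Ery 6 held 44.6% to 70.2% and 66.7% to 86.6%. In Ery 2 they ranged from 0.820% to 8.01% in library 1 and from 1.05% to 26.2% in library 2, with medians of 2.06% and 5.85%. Ery 1, in contrast, had medians of 0.771% and 0.905%, close to those of HPSC at 0.728% and 0.885%. In library 1, some cells named as erythroblasts held little adult globin, and the lowest share was 0.393% in Ery 3 and 0.644% in Ery 4. In library 2, the lowest were 5.95% and 11.9%.

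**Figure D2:**
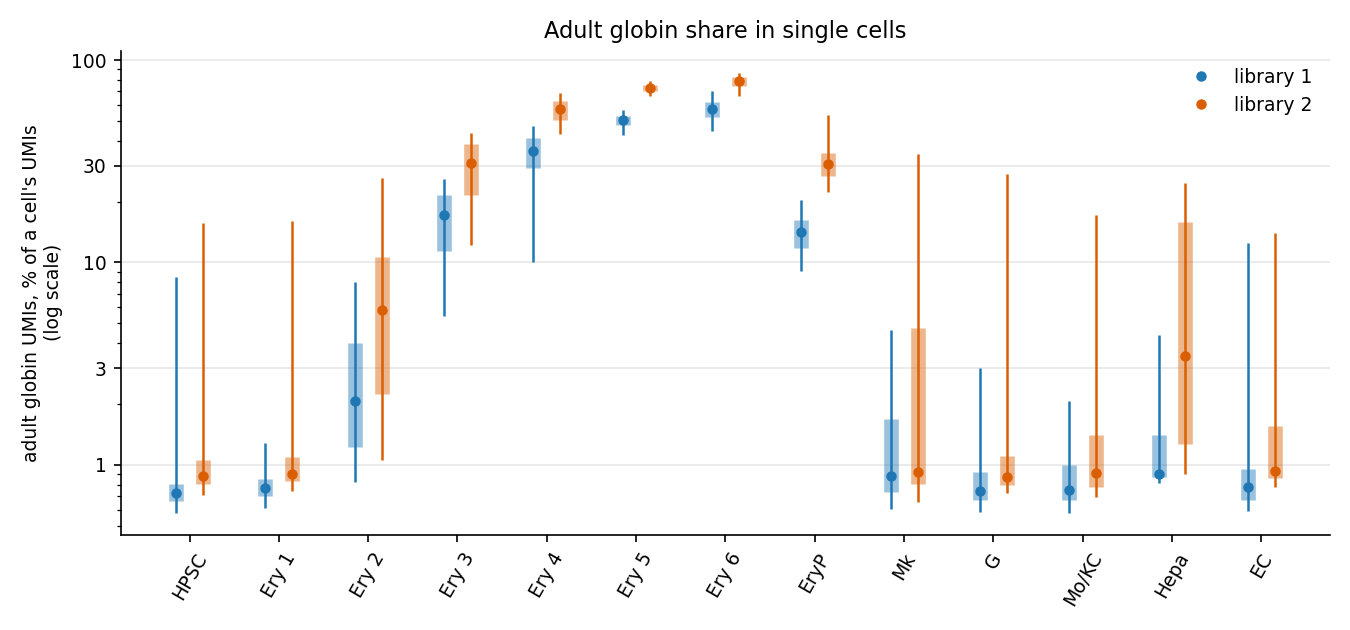
Share of adult globin UMIs in single cells (percent of the UMIs of a cell, log scale) by group and library. Points mark the median, thick bars the interquartile range of the cells and thin lines the middle 90%, so that medians near 1% in most groups outside Ery 2 to Ery 6 and EryP stand beside long upper tails.

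Adult globin UMIs were found in every kept cell of every type. They were also found outside cells: barcodes with 1 to 50 UMIs, which hold free RNA, had 19.3% adult globin in library 1 and 37.9% in library 2. Every cell was then reduced to 3600 randomly drawn UMIs, and shallower cells were left out. These were 2 of 213 HPSC, 9 of 33 Hepa and 1 of 20 EC cells of library 1, and none of library 2. Hba-a2 was found in 98.6% of the thinned HPSC cells in library 1 and 99.0% in library 2. It was also found in all such cells of Hepa and EC, which are not erythroid types. Without thinning it was found in all HPSC cells, in all EC cells, and in 97.0% and 100% of Hepa cells. The median cell held 16053 and 14956 UMIs in HPSC, 22391 and 21910 in Hepa, and 13054.5 and 15744.5 in EC. Nearly all cells of every type thus held Hba-a2, and at this depth the shares of HPSC were not above those of Hepa and EC, so no expression is read from them. Cell medians in HPSC, Mk, G, Mo/KC and EC lay between 0.728% and 0.880% in library 1 and between 0.873% and 0.928% in library 2. Hepa had 0.904% and 3.45%.

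Adult globin was spread unevenly over the cells of these types. In HPSC, the 10% of cells with the most adult globin UMIs held 59.3% of them in library 1 and 67.5% in library 2, and 13 of 213 and 28 of 208 cells were above 5% adult globin. Over all 6 non-erythroid types, HPSC included, 29 cells were above 5% and 529 were not in library 1, and 87 were and 422 were not in library 2. Few cells were close to this limit, and 5 and 10 lay between 4% and 6%. In the cells above 5%, Alas2, which encodes the first enzyme of heme synthesis in red cells, had 803 CPM (library 1) and 379 CPM (library 2), against 28.9 and 27.4 CPM in the others. Hbb-y had 477 and 7894 CPM in the cells above 5%, against 328 and 330 CPM in the others. The cells above 5% thus differed between the libraries in this embryonic gene. Without the cells above 5%, HPSC held 0.765% and 0.896% adult globin. The part of doublets, free RNA and cell naming in these values was not tested.

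The balance of the adult alpha and beta genes differed between definitive and primitive erythroblasts. In Eryb, 0.404 alpha UMIs (95% confidence interval 0.403 to 0.404) were counted per beta UMI in library 1 and 0.553 (0.553 to 0.554) in library 2. Over Ery 1 to Ery 6 this ratio stayed between 0.394 and 0.471 in library 1 and between 0.522 and 0.562 in library 2, so that every subcluster had a higher ratio in library 2 than any had in library 1. With free RNA subtracted at 5% of UMIs, the ratio of Ery 1, which then rested on little adult globin, was 2.75 in library 1 and 0.896 in library 2. At this setting, more adult globin is subtracted than the median Ery 1 cell held, 0.771% and 0.905%. The setting is thus too high for such cells, and no ratio of Ery 1 is read from it. In EryP the ratio was 2.06 (2.04 to 2.09) in library 1 and 2.34 (2.32 to 2.36) in library 2. It leaves out the embryonic genes. Hbb-y alone had 527810 and 406241 CPM in EryP, so the ratio is not the balance of all chains there. Among EryP cells, the median ratio was 2.95 and 3.73, and the middle 90% of cells ran from 1.01 to 5.22 and from 0.871 to 7.15. In Ery 6 the middle 90% of cells ran only from 0.348 to 0.484 and from 0.484 to 0.658, below the middle 90% of EryP cells. In the 101 and 68 EryP cells with at least 500 genes and under 10% mitochondrial UMIs, the ratio was 1.76 and 1.87. No ratio says how much protein was made, and capture may differ between the genes.

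The alpha and beta sides also differed in how much of EryP was adult. For these shares, the alpha-type genes Hbq1a and Hbq1b and the beta-type gene Hbb-bh2 were left out. On the alpha side, Hba-a1 and Hba-a2 made up 62.2% of UMIs in EryP in library 1 and 81.8% in library 2, the remainder being Hba-x. On the beta side, Hbb-bs and Hbb-bt made up 8.19% and 19.3%, the remainder being Hbb-y and Hbb-bh1. In Eryb, adult genes made up 99.9% of the alpha side and 97.7% of the beta side in library 1, and 99.9% and 98.9% in library 2. Hbq1b, which was left out, had 258 and 75.7 CPM in Eryb, beside 119 and 110 CPM for Hba-x. Compared with Ery 6, Hbb-bs in EryP had a CPM ratio of 0.0877 in library 1 and 0.155 in library 2, and Hbb-bt 0.187 and 0.295, whereas Hba-a1 had 0.678 and 0.952 and Hba-a2 0.528 and 0.738. By CPM, Hbb-bs and Hbb-bt were thus the members at least 2-fold lower in both libraries, as were 24.4% of the 2388 genes tested, and no member was at least 2-fold higher (4.19%). Per UMI of other genes, all 4 were at least 2-fold lower, as were 74.3% of genes, with ratios of 0.344 and 0.320 for Hba-a1, 0.267 and 0.248 for Hba-a2, 0.0947 and 0.0991 for Hbb-bt, and 0.0445 and 0.0523 for Hbb-bs. The share of adult UMIs in EryP stood beside a free RNA share of 19.3% and 37.9%. With free RNA taken as 5% of the UMIs of the group and subtracted, EryP held 14.9% and 34.1% adult globin, and 2.33 and 2.61 adult alpha per adult beta UMI. Because the adult shares of free RNA and EryP were near each other, this subtraction could change the share of EryP only little. The part of free RNA in EryP was not tested.

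Within each pair, the split of UMIs differed along the subclusters in the same way in both libraries. Hba-a1 made up 57.0% of the alpha UMIs of Ery 1 in library 1 and 57.4% in library 2. It made up 67.2% and 65.8% in Ery 2, and then less at each later subcluster, down to 59.1% and 55.7% in Ery 6. The 95% confidence intervals in library 1 were 66.9% to 67.5% in Ery 2 and 59.0% to 59.2% in Ery 6. Hbb-bt made up 35.9% and 37.7% of the beta UMIs in Ery 1, 40.2% and 43.4% in Ery 2, 37.4% and 38.8% in Ery 3 and 34.7% and 36.4% in Ery 6. The step from Ery 2 to Ery 6 was thus larger for Hba-a2 and Hbb-bs than for their partners. Hba-a2 had a CPM ratio of 21.2 in library 1 and 13.8 in library 2 over these subclusters, against 14.9 and 9.0 for Hba-a1, and Hbb-bs had 19.5 and 11.9, against 15.4 and 8.90 for Hbb-bt.

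The low values of Ery 1 lay close to those of free RNA, in which Hba-a1 made up 58.3% of alpha UMIs in library 1 and 56.8% in library 2, and Hbb-bt 34.8% and 35.6% of beta UMIs. Under the same subtraction, 0.0607% and 0.448% adult globin was left in Ery 1. The split there then became 48.4% and 59.1% for Hba-a1, and 84.2% and 49.7% for Hbb-bt. The values of Ery 1 thus depend on this setting, which was too high for its median cell. From Ery 2 onward, the lower share in Ery 6 was also found under that setting, from 70.9% to 59.1% in library 1 and from 68.5% to 55.7% in library 2 for Hba-a1, and from 42.6% to 34.7% and from 46.4% to 36.4% for Hbb-bt. EryP had the largest share of Hbb-bt of all groups, at 53.1% and 52.0%, while Hba-a1 stood at 65.0% and 61.9% there. These shares pool the UMIs of all EryP cells, and the typical cell leaned further to Hbb-bt. With EryP cells thinned to equal depth and shallower cells left out, medians were 87 Hbb-bt and 47 Hbb-bs UMIs in library 1. In library 2 they were 155 and 68.5. Whether the reads of one copy were assigned to the other was not tested.

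**Figure D3:**
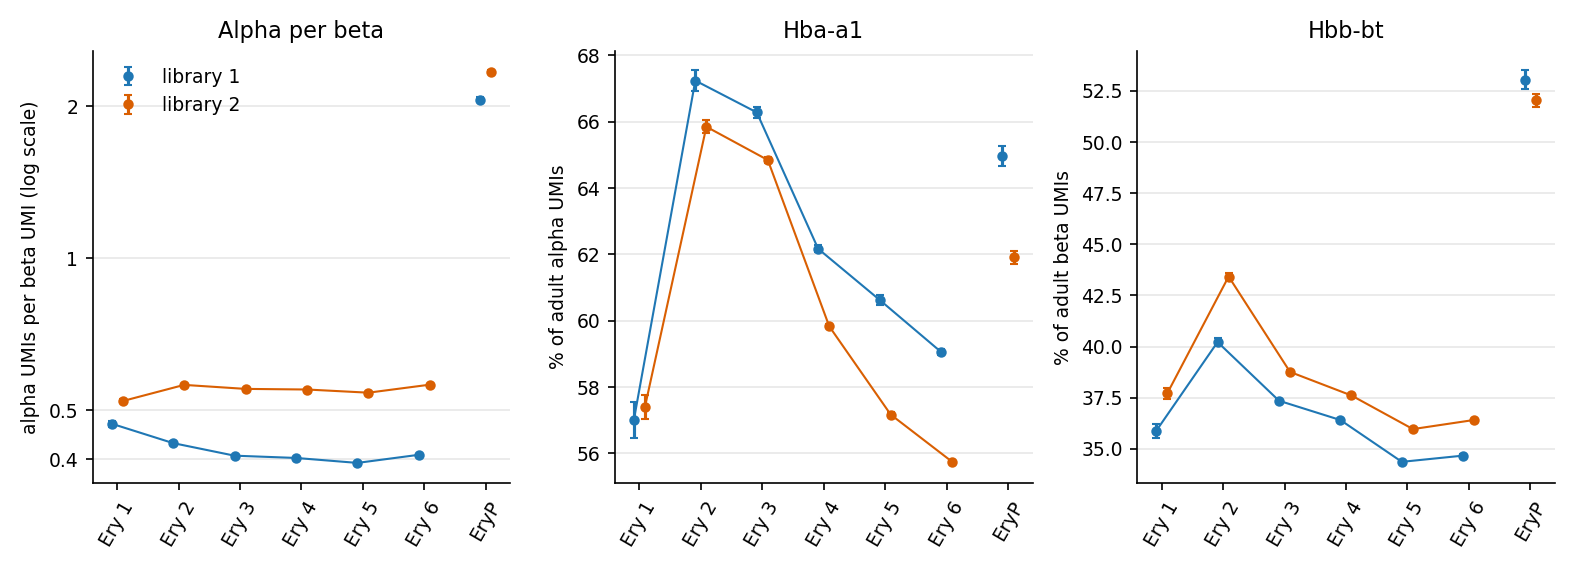
Adult alpha UMIs per adult beta UMI (log scale, embryonic genes left out), Hba-a1 as percent of adult alpha UMIs and Hbb-bt as percent of adult beta UMIs. Groups are Ery 1 to Ery 6 and EryP, per library with exact 95% intervals. The axes of the shares do not start at 0. Among Ery 1 to Ery 6 both shares peak in Ery 2, at 67.2% and 65.8% for Hba-a1, and the alpha per beta ratio of EryP, 2.06 and 2.34, lies above all erythroid subclusters.

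The same course was seen when cells were ordered without any globin gene and without the names of the subclusters. Cells of Ery and Eryb were ranked by the summed share of 16 red cell genes, such as Slc4a1, among the UMIs of non-member genes, and cut into 10 equal groups per library. Of these 16 genes, 13 were themselves at least 2-fold higher in Eryb than in Ery by CPM in both libraries, beside 4.94% of all genes. The order is thus not independent of the subclusters, and it describes the course without testing it. The adult globin share was higher in each successive group, from 0.852% in the first to 60.6% in the last in library 1, and from 1.57% to 81.1% in library 2. The largest factor between neighbouring groups lay early, from 2.58% in group 2 to 10.6% in group 3 of library 1, and from 1.57% in the first to 9.18% in the second group of library 2. Hba-a1 made up 56.0% of alpha UMIs in the first group of library 1, 67.8% in group 3 and 58.5% in the last. In library 2 it made up 57.4% in the first, 65.9% in the second and 55.3% in the last. Hbb-bt was highest in the second group of both libraries, at 40.0% and 42.0% of beta UMIs, and lowest in the last, at 33.8% and 35.4%. The median number of adult globin UMIs per cell was highest in the eighth group of library 1, at 2706, and in the ninth of library 2, at 6781.

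**Figure D4:**
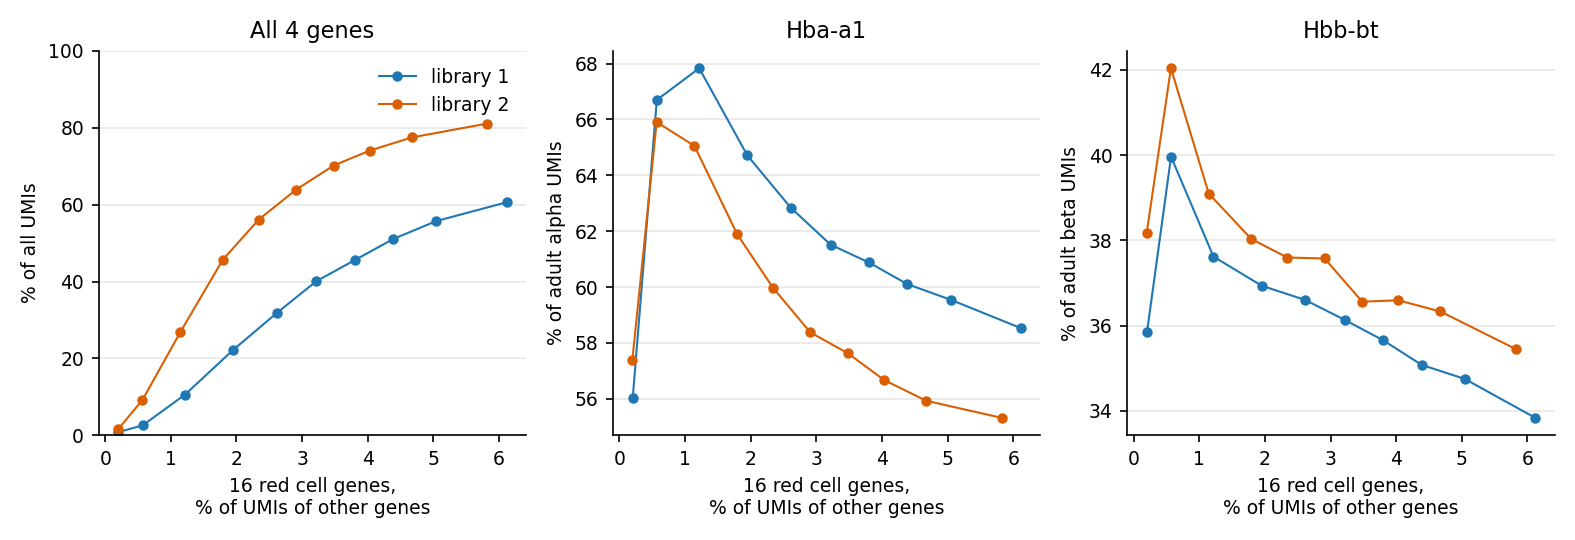
Adult globin genes in 10 equal groups of erythroid cells per library, ordered by the percent of non-member UMIs that come from 16 red cell genes (horizontal axis). The vertical axes give adult globins in percent of all UMIs, Hba-a1 in percent of adult alpha UMIs and Hbb-bt in percent of adult beta UMIs. The first climbs to 60.6% and 81.1%, and both copy shares peak in group 2 or 3, with share axes that do not start at 0.

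Other genes of hemoglobin production were compared between Eryb and Ery from lists of known function. Over all 6117 genes tested, the median ratio of Eryb to Ery was 0.467 in library 1 and 0.314 in library 2 by CPM, and 0.715 and 0.726 per UMI of genes other than the members. The members had medians of 16.9 and 12.4 by CPM and 25.8 and 28.6 per other UMI. Every CPM ratio is therefore relative to a median well below 1, and directions near 1 differ between the scales. Per other UMI, 14.8% of 6522 genes were at least 2-fold higher and 27.6% lower, against 4.94% and 53.4% by CPM.

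Of 12 genes of heme synthesis and its transport, 6 were at least 2-fold higher in both libraries by CPM and none lower, with a median ratio of 3.01 and 2.00. Per other UMI, 10 were higher and none lower, with medians of 4.60 and 4.62. Both counts of higher genes were above the shares of all genes, 4.94% by CPM and 14.8% per other UMI. Alas2 was 22.0-fold and 13.8-fold higher by CPM, above the ratio of each member in library 1 and within their range in library 2. Cpox, which encodes a later enzyme of the pathway, had ratios of 2.83 and 1.82. Tmem14c, which encodes a mitochondrial porphyrin transporter, had ratios of 1.01 and 0.742 by CPM, and above 1 per other UMI.

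Of 12 transcription factors of globin genes, 3 were higher by CPM (Nfe2, Sox6 and Klf3) and 2 lower (Ldb1 and Bcl11a), with medians of 1.36 and 0.912. Per other UMI, 7 were higher and 1 lower, with medians of 2.09 and 2.11, beside 14.8% of all genes higher and 27.6% lower. Klf1, which encodes the activator of the adult beta genes, had CPM ratios of 1.36 and 0.908, and Lmo2, which encodes a bridging factor of the GATA1 complex, 1.37 and 0.916. By CPM, both were thus above 1 in library 1 and below it in library 2, and both had ratios above 2 per other UMI. Nfe2 was 4.22-fold and 2.70-fold higher by CPM. Bcl11a, which encodes a repressor of embryonic globins, stood at 164 and 143 CPM in Ery and at 48.4 and 29.5 CPM in Eryb.

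Of 10 genes of globin protein quality control, 8 were tested by CPM. Eif2ak1, which encodes the heme-regulated kinase that slows translation, and Ube2o, which encodes a ubiquitin ligase that clears free alpha chains, were higher, and the chaperone genes Hspa8, Hspa9 and Hsph1 were lower. The medians were 1.0 and 0.647 by CPM and 1.53 and 1.5 per other UMI, where 4 of 10 were higher and 3 lower. The 3 lower genes of 10 are near the 27.6% of all genes on that scale, and the 3 of 8 by CPM are below the 53.4% there. Hspa8 stood at 5057 and 4950 CPM in Ery and 950 and 652 CPM in Eryb. Prdx2, which encodes an antioxidant enzyme of red cells, had ratios of 2.83 and 1.96.

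Of 6 other globin genes, 4 were tested, and Hbb-bh1 and Hbq1b were at least 2-fold higher in both libraries by CPM, beside 4.94% of all genes. Per other UMI all 4 were, beside 14.8%, with medians of 15.5 and 12.9. Hbb-bh1 stood at 198 and 225 CPM in Ery and 5129 and 3306 CPM in Eryb, so its ratios of 25.9 and 14.7 exceeded those of the adult genes. Hbb-y had ratios of 2.87 and 1.80 by CPM and 4.40 and 4.15 per other UMI, and Hba-x 4.54 and 1.84, and 6.95 and 4.24. Of 7 markers of hepatoblasts and endothelial cells, none reached the minimum for the comparison, and their summed level was 23.7 and 19.2 CPM in Ery and 42.0 and 17.4 CPM in Eryb.

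Over the 13 groups, the 4 genes followed each other closely. Pearson's r of log2(CPM + 1) was 0.996 and 0.995 between the alpha genes and 0.991 and 0.991 between the beta genes in libraries 1 and 2. Across chains it was lower, with 0.939 and 0.940 between Hba-a1 and Hbb-bs as the lowest. The genes most like the sum of the 4 among 4411 compared, by the mean r of the libraries, were Alas2 (0.995), Slc25a37 (0.993), Ube2l6 (0.988), Slc4a1 (0.986) and Hbq1b (0.972). Samd11, Fam210b, Gm867 and Ypel4 were also among the 10 most alike, with 0.958 for the last. Slc25a37 encodes the mitochondrial iron importer of red cell precursors, and Slc4a1 the band 3 anion exchanger of the red cell membrane. Alas2 stood at 38.5 and 48.6 CPM in Ery 1, 3790 and 1962 CPM in Ery 6 and 1295 and 1000 CPM in EryP. The groups share their library and 7 of 13 are erythroid, so these values describe the pattern and carry no test.

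The libraries differed more in adult globins than in nearly all other genes. Since a higher globin share lowers the CPM of all other genes, levels were expressed per 1000000 UMIs of all genes but the 4 members. On this scale, Hba-a2 in Eryb stood at 62779 in library 1 and 211755 in library 2, a ratio of 3.37. Hba-a1 stood at 99511 and 296318, a ratio of 2.98. The ratio was 2.38 for Hbb-bt and 2.24 for Hbb-bs. All 4 were among the 22 of 2511 genes (0.876%) that were at least 2-fold higher in library 2, with ranks 7, 10, 18 and 20 by this ratio. The median ratio of all these genes was 0.973. The embryonic globins Hba-x, Hbb-y and Hbb-bh1 had ratios nearer to 1 over all Eryb, with 1.44, 1.21 and 1.0. Hbq1b, another alpha-type globin gene, went the other way, at 404 in library 1 and 184 in library 2. It was thus among the genes at least 2-fold lower in library 2. Within Eryb, Hba-x and Hbb-y varied by subcluster, with ratios of 5.16 and 4.55 in Ery 3 and 0.489 and 0.352 in Ery 4.

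In EryP, the adult genes again differed more between the libraries than Hba-x, Hbb-y and Hbb-bh1 did. The ratio was 3.31 for Hba-a2, 2.91 for Hba-a1, 2.75 for Hbb-bs and 2.64 for Hbb-bt, and all 4 were among the 13 of 844 genes (1.54%) at least 2-fold higher in library 2. It was 1.12 for Hba-x, 0.995 for Hbb-y and 1.12 for Hbb-bh1, although Hbb-y was the most counted gene of EryP. HPSC did not show this contrast. The ratio there was 7.99 for Hba-x, 4.45 for Hbb-y and 1.04 for Hbb-bh1, against 1.67 to 2.09 for the members. Over Ery 1 to Ery 6, the ratio of Hba-a2 lay between 2.44 and 3.59 and that of Hbb-bs between 1.90 and 2.34. The adult share of free RNA moved the same way, with 19.3% in library 1 and 37.9% in library 2. Its alpha per beta ratio, 0.419 and 0.457, differed less between the libraries than that of Eryb, 0.404 and 0.553.

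Genes with near-identical copies were common among those that differed between the libraries in Eryb. A transcript was found for 2439 of the 2511 genes, and of these, 107 (4.39%) shared at least 50% of the 50-base words of their last 400 bases with another gene, as the 4 members do. In library 2, 22 genes were at least 2-fold higher and 25 (0.996%) at least 2-fold lower. Of the higher genes, 15 of 22 (68.2%) shared their ends in this way, of the lower genes with a transcript 14 of 24 (58.3%), and of the others 78 of 2393 (3.26%). The members are themselves 4 of the 15. A software version stands in the matrix headers of library 1, which is not the version named in the methods, and none stands in those of library 2. The part of read assignment, capture and cells in the difference between the libraries was not tested, and it cannot be told apart from the library itself.

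**Figure D5:**
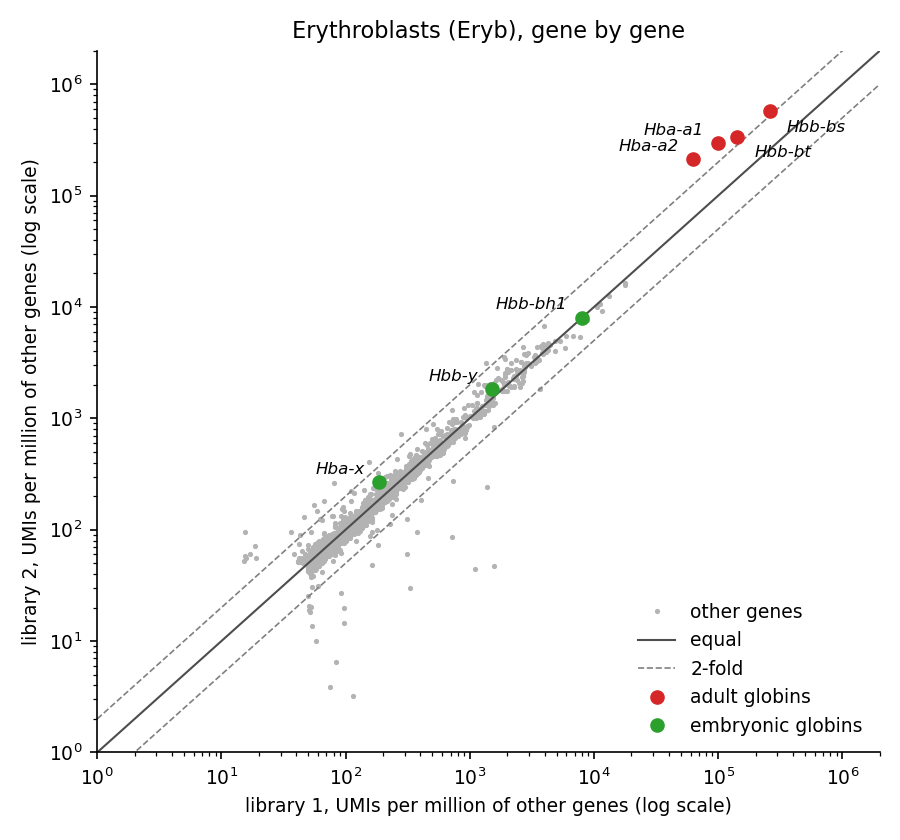
Level of 2511 genes in Eryb per 1000000 UMIs of genes other than the members, library 1 against library 2 (both axes log scale). The adult globins (red) lie above the dashed line of a 2-fold difference, with ratios of 2.24 to 3.37. The embryonic globins Hba-x, Hbb-y and Hbb-bh1 (green) lie between the dashed lines, with ratios of 1.0 to 1.44.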

How the data were processed

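The authors deposited raw UMI counts per gene and barcode, for barcodes called as cells and for all barcodes, and a table that gives each kept cell its cluster and type and has no measured unit. Per the labels and the methods, Cell Ranger 2.1.1 aligned the reads to mm10 and counted UMIs, and Seurat 3.2.0 was used for clustering. From the deposited counts, UMIs were summed per cell type or subcluster and library and scaled to CPM or percent. Intervals (95%) are exact Poisson for CPM and Clopper-Pearson for shares. A gene was compared between groups where it reached 10 CPM in either group in both libraries, and between libraries or for likeness at 50 CPM, and counted as different at 2-fold. Free RNA was taken from barcodes with 1 to 50 UMIs. Cells were thinned to 3600 UMIs with seed 1. Beyond the authors' sort, no doublets were removed. The members and gene lists were chosen with earlier results of these data known. Genes named from a list are the 2 to 4 with the highest mean CPM in Eryb, with the other genes counted as different where a list had at most 5, and Bcl11a was given values after these were seen. Some genes that this rule names are not reported here. Scripts in Python 3.11.15 (with matplotlib 3.10.9, Biopython 1.88, scipy 1.17.1, pandas 2.3.3 and numpy 2.4.6) were tested on simulated data. Alternatives were each library alone, cell filters, means over cells, free RNA subtraction, other denominators, minima and folds, no thinning and 20 ordered groups.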

Additional observations from a re-analysis of the deposited data

Results flagged for a closer look

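Adult globins were also counted in barcodes that are not among the kept cells. In library 1, 284 barcodes called as cells but not kept held 4.41% adult globin, with 80.5% mitochondrial UMIs. Barcodes not called as cells, with at least 1000 UMIs and 200 genes, numbered 168 in library 1, where adult globins made up 38.7% of their UMIs, and 3311 in library 2, where they made up 36.7%. A count of 3 would be at most 0.00128% of the UMIs of any of these sets. The median barcode of the uncalled sets held 37.9% adult globin in library 1 and 36.1% in library 2, and 2102 and 1777 UMIs. Whether they are cells was not tested.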

How the results depend on the processing

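With 1 liver and 2 technical libraries, the values limit what can be said to these libraries, and no p-value was possible. No paired analysis was possible because the replicate numbers name the 2 libraries of 1 group. The results for Ahsp were not run. Of 82 alternative values, 69 moved by less than 1 SD of the libraries or, for counts, less than 1.5 times. With 2 libraries, each library alone always lies less than 1 SD from their mean. For shares and ratios, the values of single libraries among the 69 therefore say nothing about stability. Subtracting free RNA at 5% of UMIs lowered the HPSC share from 2.14% to 0.748% and raised the ratio of Eryb to Ery from 14.8 to 25.6. This setting takes away more adult globin than the median HPSC or Ery 1 cell held, so both changes may be too large. Leaving out non-erythroid cells over 5% adult globin, an alternative chosen after seeing the data, as were the comparisons of single subclusters under other settings, gave 0.830% for HPSC. With UMIs of other genes as denominator, the Eryb value was 99.5 per 100 and the ratio 27.5. The 302 genes higher in Eryb became 968 and the 3269 lower 1802 on this scale, 1223 and 1080 with the median ratio set to 1, where more genes were higher than lower, in contrast to CPM, and 537 and 6097 with no minimum but 1 UMI. The share of HPSC cells with Hba-a2 was 98.8% thinned and 100% unthinned. With each library alone, HPSC ranged from 1.53% to 2.76%, Ery from 2.09% to 4.75%, Eryb from 36.1% to 58.8%, EryP from 15.1% to 34.3%, and the ratio from 12.4 to 17.2. Alpha per beta ranged from 0.404 to 0.553, Hba-a1 from 58.3% to 61.3% of alpha, Hbb-bt from 35.5% to 37.0% of beta, higher genes from 304 (without library 1) to 568 (without library 2), and lower genes from 3390 to 4438. In the 10 settings in which genes were counted, CPM included, the 4 members were among the genes higher in Eryb.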
